A study of Mus musculus with 8 samples.

Results

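Chromatin immunoprecipitation with sequencing (ChIP-seq) placed Qki-5 at 30175 peaks on chromosomes 1 to 19, X and Y in oligodendrocytes differentiated from mouse neural stem cells. Of these, 6061 (20.1%) had no PPARb, HA or RNA polymerase II (Pol II) peak from the same cells with its centre under 200 bp away, the distance at which 2 peaks of 200 bp still share a base. They are called lone Qki-5 peaks here. They were selected on the measured peak calls of these 4 libraries, so the absence of a partner is how they were chosen and not a finding, and "lone" means only that no partner peak was called there. The other 24114 Qki-5 peaks had a partner, 16388 of them from 1 or 2 of the 3 partner lists and 7726 from all 3.

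Quaking is an RNA-binding protein that oligodendrocytes, the myelin-forming cells of the brain, need for the processing, export and stability of their messenger RNAs. Qki-5 is its nuclear isoform, and its known binding element in RNA contains ACUAA followed by a pyrimidine. PPARb, encoded by Ppard, is a nuclear receptor that senses lipids and binds DNA together with RXR at repeats of the hexamer AGGTCA. Pol II marks promoters and transcribed genes. A Qki-5 ChIP-seq peak can come from contact through other proteins or through nascent RNA as well as from DNA, and the assay does not tell these apart.

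The differentiated cells came from neural stem cells of an FvB/C57BL6 hybrid background with ectopic expression of PPARb, and the library names mark that PPARb as HA-tagged. They were at passage 7 and had been kept in medium with B-27, IGF-1 and T3. All 4 antibody libraries of differentiated cells and their input carried this PPARb, so none shows the cells without it. The isolated cells, at passage 0, were taken with O4 magnetic beads from brains of C57BL6 mice. They gave a Qki-5 and a PPARb library plus an input, and no HA or Pol II library was analysed for them here. Each of the 8 groups had 1 library. There is therefore no replicate error, no p-value is given, and every interval below covers counting error only. Neighbouring peaks and peaks of 1 gene are not independent either.

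The Qki-5 library of differentiated cells held 18078176 tags, and 3.66% of them lay in peaks. The Qki-5 library of isolated cells held 21832339 tags, but only 0.849% lay in its 8375 peaks, and the PPARb library of isolated cells had 0.116% of its tags in 1391 peaks. A site without a peak in isolated cells is one where none was called, which does not show that the protein was absent. Qki-5 of isolated cells had a peak in or within 1000 bp of 13 of 18 myelin genes and 12 of 16 mature oligodendrocyte enzymes. It had one at 7 of 14 lineage transcription factors and 6 of 18 precursor and stem cell genes. For astrocyte and neuron markers the count was 0 of 13 and 0 of 15. For microglia it was 1 of 14, for endothelial and mural markers 8 of 13, and over all protein-coding genes 32.3%. In differentiated cells Pol II had a peak at 5 of 18 myelin genes, 5 of 16 mature enzymes and 8 of 14 lineage transcription factors. It had one at 14 of 18 precursor and stem cell genes. For astrocyte and neuron markers the count was 7 of 13 and 5 of 15. For microglia it was 1 of 14, for endothelial and mural markers 1 of 13, and over all protein-coding genes 44.0%. Qki-5 and Pol II are different proteins, so these counts are not compared between the cell kinds, and the part of other cell types in the results below was not tested.

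The sequences under the tallest lone peaks next to gene starts are shown first, because place and promoter make-up are among the measures compared below. Of the lone peaks near a start, 150 had at least 120 bases upstream of that start and outside every annotated gene, and 35 of these also had a Qki-5 peak in isolated cells. The 4 tallest of each kind follow. Each run is the part of the peak upstream of the start, 5′ to 3′ along the gene, from RefSeq on GRCm38.p6, the same build as mm10. Capitals mark matches on either strand to the CCAAT box CCAAT (reverse ATTGG), the GC box GGGCGG (reverse CCGCCC), the ETS site CGGAAG (reverse CTTCCG) or the E-box CACGTG. The 4 shared with isolated cells are these.

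Eif2ak3 chr6:70844276-70844476 (+ strand): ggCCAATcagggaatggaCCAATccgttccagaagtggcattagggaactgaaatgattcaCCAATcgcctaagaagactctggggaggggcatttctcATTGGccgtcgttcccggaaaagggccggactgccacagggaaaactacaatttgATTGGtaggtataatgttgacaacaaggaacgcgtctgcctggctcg

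Tubb4b chr2:25224833-25224952 (- strand): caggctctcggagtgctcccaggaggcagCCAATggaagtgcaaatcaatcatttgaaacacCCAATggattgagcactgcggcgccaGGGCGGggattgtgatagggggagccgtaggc

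Asf1b chr8:83955444-83955640 (+ strand): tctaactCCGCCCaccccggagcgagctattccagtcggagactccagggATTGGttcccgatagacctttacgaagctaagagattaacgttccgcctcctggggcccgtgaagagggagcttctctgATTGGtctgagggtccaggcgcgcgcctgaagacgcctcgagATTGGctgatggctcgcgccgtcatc

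Prcc chr3:87885666-87885812 (- strand): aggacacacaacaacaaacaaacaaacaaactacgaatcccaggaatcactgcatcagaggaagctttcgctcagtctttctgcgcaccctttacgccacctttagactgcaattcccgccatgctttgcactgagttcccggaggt

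Eif2ak3 encodes PERK, the kinase that slows translation under endoplasmic reticulum stress. Its peak, the second tallest of all lone peaks, lay over 5 CCAAT boxes in 201 bases. Tubb4b, a beta-tubulin, had 2 CCAAT boxes and 1 GC box. Asf1b, a histone chaperone with a peak height of 24.9, had 3 CCAAT boxes and 1 GC box. Prcc had no match to any of the 7 motifs searched. The 4 tallest without a Qki-5 peak in isolated cells are these.

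Rock2 chr12:16894785-16894977 (+ strand): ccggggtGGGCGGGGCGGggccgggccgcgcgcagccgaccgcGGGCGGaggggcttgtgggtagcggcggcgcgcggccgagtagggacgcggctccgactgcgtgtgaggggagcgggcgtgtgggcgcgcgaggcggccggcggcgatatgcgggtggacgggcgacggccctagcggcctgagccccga

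Hsd17b12 chr2:94158038-94158159 (- strand): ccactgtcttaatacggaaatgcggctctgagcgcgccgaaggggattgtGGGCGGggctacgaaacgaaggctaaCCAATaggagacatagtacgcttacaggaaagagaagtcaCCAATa

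9330104G04Rik chr7:16874895-16875095 (- strand): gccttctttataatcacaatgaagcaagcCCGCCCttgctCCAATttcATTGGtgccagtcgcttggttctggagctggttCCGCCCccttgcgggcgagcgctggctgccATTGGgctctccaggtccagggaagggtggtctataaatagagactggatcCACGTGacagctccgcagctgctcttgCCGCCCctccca

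Tmem184c chr8:77610715-77610903 (- strand): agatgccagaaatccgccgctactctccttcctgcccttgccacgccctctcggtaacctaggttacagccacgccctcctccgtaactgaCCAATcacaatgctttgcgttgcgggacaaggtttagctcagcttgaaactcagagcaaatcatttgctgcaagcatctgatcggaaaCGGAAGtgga

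Rock2, a kinase of the actin cytoskeleton, had 3 GC boxes, no CCAAT box and a G and C content of 81.9%. Hsd17b12, an enzyme of fatty acid elongation, had 2 CCAAT boxes and 1 GC box. The long non-coding RNA gene 9330104G04Rik had 3 CCAAT boxes, 3 GC boxes and an E-box, and Tmem184c had 1 CCAAT box and 1 ETS site. The peaks of these 4 had heights of 21.6, 20.5, 19.9 and 19.4 in that order. None of the 8 runs held the Quaking core in its DNA letters or the nuclear receptor hexamer. All 8 peaks had a partner centre between 209 and 374 bp away, past the limit.

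Lone Qki-5 peaks were low. Peak height is the authors' tag count scaled to 10000000 tags, on which 1 tag of this library is worth 0.553. The median height was 7.74 in lone peaks (quartiles 6.64 and 9.40, range 4.98 to 36.5), against 10.5 (8.30 and 14.4) in peaks with 1 or 2 partners and 14.9 (12.2 and 18.8) in peaks with all 3. The middle ranges of lone peaks and of peaks with all 3 partners did not meet, but the whole ranges overlapped. A lone peak of median height rested on 14 tags, 2 above the caller's threshold of 12. That threshold was not a floor for the listed tag counts, since the lone peak at Hadh held 11. At most 15 tags lay in 67.7% of lone peaks, against 20.5% of the other Qki-5 peaks. Fold over input had a median of 7.87 in lone peaks and 12.1 in the others, and fold over the surrounding 10000 bp of 6.77 and 8.65. Input tags under the peaks had the same median, 1.90, in both. With all Qki-5 peaks sorted by height into 5 quintiles, 3126 lone peaks made up 51.8% of quintile 1, the lowest, and lone peaks were 28.2%, 12.4%, 5.19% and 2.87% of quintiles 2 to 5. These heights come from the list used to choose the peaks and are a description.

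Lone peaks were sorted into 3 bands by the distance of the nearest partner centre. In 1016 it lay at 200 to under 400 bp, just past the limit, in 648 at 400 to under 1000 bp and in 4397 at 1000 bp or more. The first are called near and the last far lone peaks. The median height was 9.96, 8.30 and 7.19 in these 3 bands. Peaks at 15 tags or fewer made up 37.0% of the near and 76.7% of the far ones. The peak caller's focus ratio, the share of tags placed around the centre as 1 compact site would give, had a median of 0.642 in the near and 0.722 in the far ones. Of the 1016 near ones, 545 had 1 partner list in the band, 326 had 2 and 145 had all 3. HA was there in 732, PPARb in 575 and Pol II in 325. In 72 of them the nearest partner overlapped another Qki-5 peak. Just within the rule, the 104 lone peaks with a partner under 210 bp away had a median height of 9.40, and just outside it, the 128 peaks with the nearest partner at 190 bp or more had 9.96. A Qki-5 peak of isolated cells lay at 12 of the 104 (11.5%) and at 19 of the 128 (14.8%). The bands were chosen after the data were seen.

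**Figure D1:**
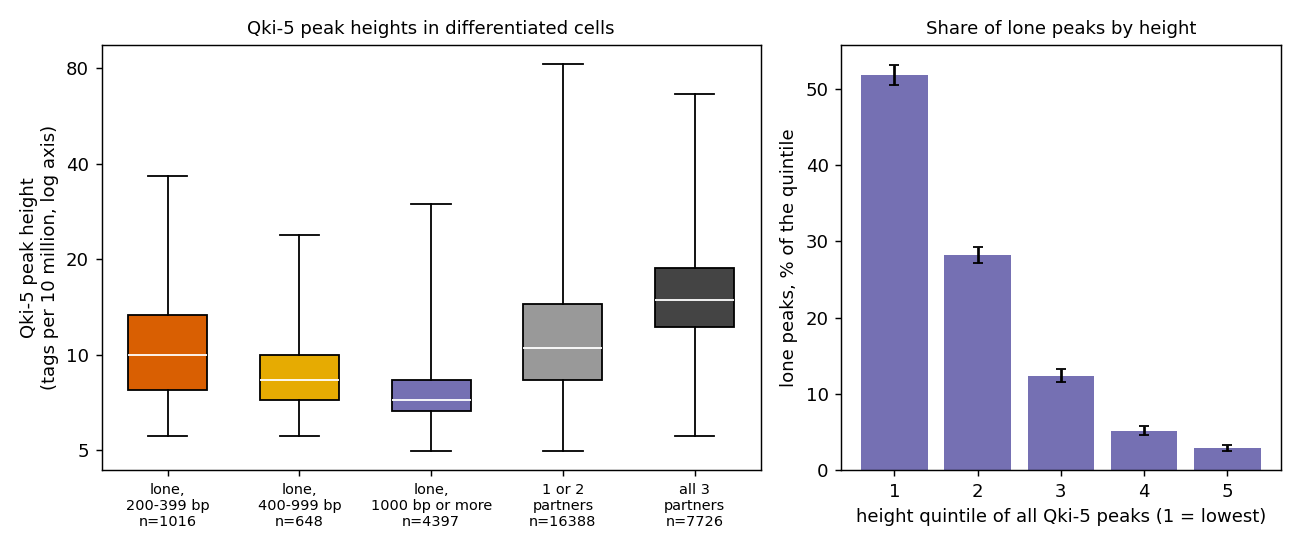
Left, heights of Qki-5 peaks in differentiated cells on a log axis: boxes run between quartiles with the median as a white line, and whiskers reach the lowest and highest peak. Lone peaks are split by the distance to the nearest PPARb, HA or Pol II centre and stand at medians of 9.96, 8.30 and 7.19, left of peaks with 1 or 2 partners (10.5) and all 3 (14.9). Right, lone peaks as a percentage of each height quintile of all Qki-5 peaks, with 95% exact intervals, 51.8% in the lowest and 2.87% in the highest.

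The tallest lone peaks nearly all had a partner a little further off. The 12 tallest stood at Cic, Eif2ak3, a boundary shared by Nudt6 and Spata5, a site nearest to Gm52481 on chromosome Y, Arntl, Sumo3, Tubb4b, Cnot1, Klf10, Sp1, Prcc and Drc3, and 11 of them had a partner centre at 212 to 338 bp. The exception was the chromosome Y site, 3672 bp from a partner, with a height of 29.9 and a fold over input of 5.15, against 139 at Cic. Cic, a repressor that acts below receptor tyrosine kinases, had the highest peak at 36.5 (interval 28.2 to 46.4) at chr7:25268178-25268378, with HA 212 bp away and no Qki-5 peak in isolated cells. Eif2ak3 reached 35.4 at chr6:70844276-70844476 and 18.8 in isolated cells, where the centre lay within 1 bp. Arntl encodes BMAL1 of the circadian clock. Its peak of 29.3 lay 28802 bp inside the gene at chr7:113207173-113207373, and it was 22.4 in isolated cells, the highest there among all lone peaks. Sp1, the factor that binds GC boxes, had 27.1, and 17.4 in isolated cells. Cnot1, the scaffold of the deadenylase that shortens messenger RNA tails, had 27.7, and 11.5 in isolated cells. Sumo3, a small protein modifier, had 29.3, and 11 in isolated cells. The peaks at Nudt6 and Spata5 (29.9), Klf10 (27.7) and Drc3 (26.0) had none there. Of the 10 tallest lone peaks shared with isolated cells, 3 were not among the 12 tallest overall. They stood inside Tarbp2 (26.0, and 17.9 in isolated cells), at Ankhd1 (26.0 and 18.3) and at Hnrnpa3 (25.4 and 10.1), which encodes a nuclear RNA-binding protein.

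Lone peaks far from any partner reached lower heights. Beyond the chromosome Y site, the tallest at 1000 bp or more was 24.9 at a boundary of M6pr, a receptor that sorts lysosomal enzymes, at chr6:122308647-122308847. Its nearest partner lay 31044 bp away, and isolated cells had a Qki-5 peak of 16.9 there. Next came sites at the homeobox genes Tlx2 (22.7, and 8.70 in isolated cells) and Shox2 (22.1, none), inside the corepressor gene Sin3a (21.0, none) and inside Cacng4 (20.5, none), which encodes an auxiliary subunit of AMPA receptors. Of the 27 far lone peaks in height quintile 5, 4 had a Qki-5 peak in isolated cells, those at M6pr, Tlx2, Zbtb7b and Esco2.

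Relative to genes, lone peaks lay further from gene ends than other Qki-5 peaks. A centre within 1000 bp of either end of a protein-coding gene, its boundary, was found for 1066 of 6061 lone peaks (17.6%, interval 16.6 to 18.6), against 36.7% of the other Qki-5 peaks and 32.8% of all Qki-5 peaks. The difference to the others was -19.1 points (-20.2 to -17.9). With gene starts in place of either end, and chromosome 18 left out, the share was 17.9% (1049 of 5852), against 36.9%. The median distance to a boundary was 17025 bp for lone peaks, 6732 bp for the others and 706 bp for peaks with all 3 partners. Inside a gene lay 55.6% of lone peaks, against 57.8% of the others and 57.4% of all, a difference of -2.20 points (-3.60 to -0.805). Against peaks with 1 or 2 partners it was -0.846 points, with an interval that includes 0 (-2.31 to 0.614). By distance to a partner, 57.9% of near lone peaks lay inside a gene, 64.4% of those at 400 to under 1000 bp and 53.8% of far ones. Outside genes and over 50000 bp from any boundary lay 15.8%, against 11.2%.

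The distance to gene ends split with the distance to a partner. The bands are cut on partner peaks, and of Qki-5 peaks with all 3 partners 52.0% were boundary peaks. The far limit of 1000 bp also equals the boundary window. The split is therefore tied in part to how the bands were cut, and it is given as a description. Of near lone peaks 43.7% were boundary peaks, and of far ones 8.62%, which puts near above far by 35.1 points (31.9 to 38.3). Near lone peaks were above the 36.7% of other Qki-5 peaks by 7.05 points (3.97 to 10.2), and far ones differed from it by -28.0 points (-29.0 to -27.0). Peaks of like height showed both. In quintile 1, 26.6% of near and 7.25% of far lone peaks were boundary peaks, against 14.5% of the others, and in quintile 4 59.7% and 24.0%, against 43.7%. In quintile 5 it was 72.7% of near and 48.1% of far lone peaks (13 of 27), against 55.4% of the others, and the interval of the far difference, -24.7 to 10.6 points, included 0. Over all lone peaks of quintile 5 the direction was turned, with 67.1% at boundaries against 55.4% (difference 11.6 points, 4.19 to 18.3).

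**Figure D2:**
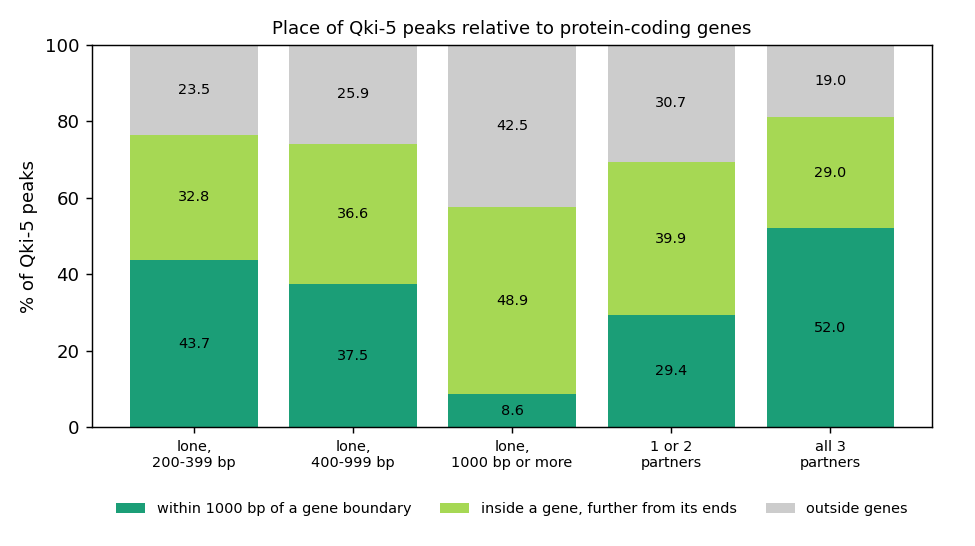
Bars give the percentage of Qki-5 peaks within 1000 bp of a gene boundary, inside a gene further from its ends, and outside genes, for lone peaks in 3 bands of distance to the nearest partner and for peaks with 1 or 2 and with all 3 partners. Boundary peaks make up 43.7% of the nearest lone peaks and 8.62% of the farthest, against 29.4% and 52.0% of peaks with partners.

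At gene starts, lone peaks were spread more widely. Of the lone peaks within 1000 bp of a start, the middle range of offsets ran between -180 bp (upstream) and 335 bp (downstream). It was -122 and 74 bp for peaks with 1 or 2 partners and -68 and 47 bp for peaks with all 3. In near lone peaks it ran between -204 and 252 bp, and in far ones between -142 and 102 bp. Near ones lie at least 200 bp from a partner by choice. Upstream of the start lay 50.8% of them (47.7 to 53.9), against 60.1% (58.7 to 61.5) of peaks with 1 or 2 partners and 56.3% (54.7 to 57.9) of peaks with all 3. The share was 57.2% of near lone peaks, 54.6% of far ones and 69.7% (61.8 to 76.8) of the 155 shared with isolated cells. Lone peaks at 400 to under 1000 bp from a partner, also part of the 50.8%, were not summarised alone. Peaks with partners were not split by sharing here. For near lone peaks the median offset was -70 bp, and 68 bp for their nearest partner, and the partner was the further downstream in 247 of 439 (56.3%, 51.5 to 61.0).

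Isolated cells were not used to choose the peaks. A Qki-5 peak of isolated cells had its centre under 200 bp from that of 280 lone peaks (4.62%, interval 4.1 to 5.18), against 5539 of the other Qki-5 peaks (23.0%) and 19.3% of all Qki-5 peaks. The difference was -18.4 points (-19.1 to -17.6). Against peaks with a single partner list, where the share was 11.1%, it was -6.51 points (-7.45 to -5.58). The 280 shared peaks had a median height of 11.6 in differentiated cells and of 8.70 in isolated cells, where the whole Qki-5 list had 9.16. A further 272 lone peaks had a Qki-5 centre of isolated cells at 200 to under 1000 bp.

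This share went with height. Over quintiles 1 to 5, 1.60%, 2.88%, 7.09%, 18.5% and 40.5% of lone peaks had a Qki-5 peak in isolated cells, against 3.64%, 6.46%, 14.2%, 27.4% and 48.4% of the others. The difference lay between -2.04 and -8.82 points, and no interval included 0, that of quintile 5 being -15.1 to -0.364. Near lone peaks had 2.07%, 5.77%, 12.4%, 26.2% and 47.7%, and in each quintile the interval of their difference to the others included 0, the widest being -9.09 to 7.91 points in quintile 5. Far lone peaks had 1.60%, 2.19%, 4.42%, 9.92% and 14.8% (4 of 27), and no interval of their difference to the others included 0, with -2.05 points (-2.90 to -1.22) in quintile 1 and -33.6 points (-42.6 to -15.9) in quintile 5. At like height the lower share was thus measured for far lone peaks. For near ones a difference was not detectable, which does not show that it is absent.

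**Figure D3:**
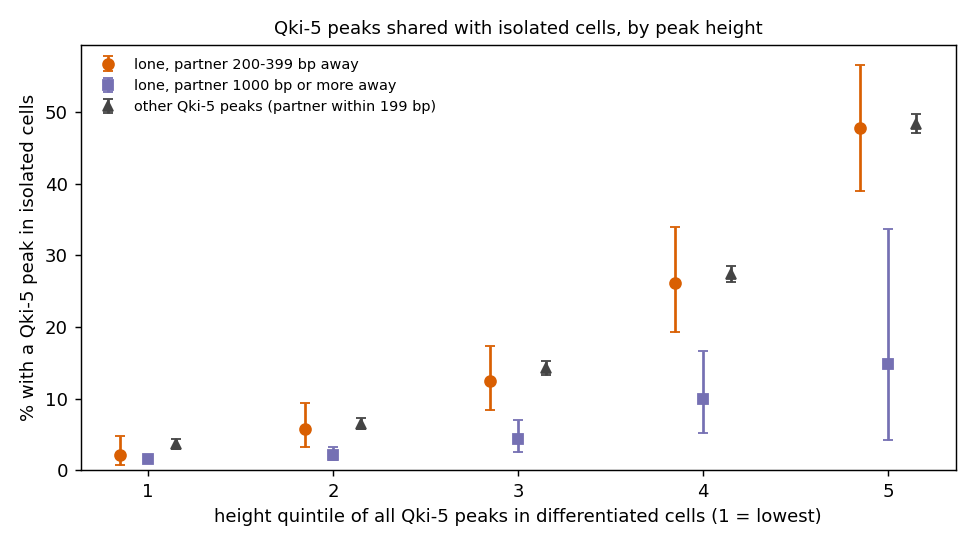
The percentage of Qki-5 peaks of differentiated cells with a Qki-5 peak in isolated cells, by height quintile, for near lone peaks (partner at 200 to under 400 bp), far lone peaks (1000 bp or more) and the other Qki-5 peaks. Bars are 95% exact intervals. In quintile 5 near lone peaks stand at 47.7% and far ones at 14.8%, beside 48.4% of the others.

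Place went with sharing too. At gene boundaries 14.3% of lone peaks had a Qki-5 peak in isolated cells, against 46.5% of the others. Inside genes it was 2.98%, against 11.3%, and outside 2.06%, against 6.68%. The height of the shared peaks in the 2 cell kinds ran together over the 151 near ones (Spearman rho 0.59) and hardly over the 102 far ones (0.08). Quartiles of the far ones were 7.19 and 10.5 in differentiated and 6.41 and 8.70 in isolated cells. Those of the near ones were 11.6 and 19.4, and 8.24 and 13.3. Far heights were thus lower and in a narrower range, and the part of this in rho was not tested. Both rho values are correlations over sites of the same 2 libraries, given as a description.

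PPARb of isolated cells had a peak at 26 lone peaks (0.429%), against 4.27% of the other Qki-5 peaks and 3.50% of all, a difference of -3.84 points (-4.14 to -3.52). At 22 of the 26 isolated cells also had a Qki-5 peak. The proportion was similar for the other Qki-5 peaks with PPARb of isolated cells, 881 of 1030, and for all, 903 of 1056. The tallest of the 26 were at Tubb4b (28.8, with 9.24 for PPARb of isolated cells), Prcc (26.6 and 7.61) and Tarbp2 (26.0 and 12.5), which encodes a partner of Dicer. Of the 26, 5 were far from any partner of differentiated cells. The first had Mal, a proteolipid of compact myelin, as its nearest gene at 5627 bp. There the lone peak at chr2:127627499-127627699 had a height of 8.85 and isolated cells had 9.62 for Qki-5 and 11.4 for PPARb, with the nearest partner of differentiated cells 40277 bp away. The next lay inside Slc27a1, a fatty acid transporter, with 17.1 in differentiated cells and, in isolated cells, 6.53 for PPARb and no Qki-5 peak. At a boundary of Abca7, a lipid transporter, the heights were 13.8 in differentiated cells and, in isolated cells, 8.24 for Qki-5 and 8.70 for PPARb. The other two had Fth1, the heavy chain of ferritin, at 39469 bp and Gm46592 at 3353 bp as the nearest genes. The 4 with PPARb but no Qki-5 peak in isolated cells were at Slc27a1, Ppp1r12b, Vps26a and Sorbs3. These were singled out after their values were seen.

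Protein-coding genes with a lone peak in the gene or within 1000 bp of it numbered 3039 of 21887 (13.9%). Of these, 2172 also had another Qki-5 peak, and in 867 every Qki-5 peak was a lone one. Of all protein-coding genes, 9.92% had both kinds, 43.3% had other Qki-5 peaks alone and 42.8% had no Qki-5 peak. A single lone peak was found in 2414 genes, 2 in 431 and 3 or more in 194. Genes with a lone peak had a median length of 61209 bp, against 22536 bp for genes with other Qki-5 peaks alone. The median was 87584 bp in the 2172 genes with both kinds, which hold at least 2 Qki-5 peaks each. In the 867 genes with lone peaks alone it was 23555 bp, near that of genes with other Qki-5 peaks alone. Lone peaks made up 11.5% of the Qki-5 peaks in genes under 10000 bp and 29.5% (27.1 to 32.0) in genes of 500000 bp or more. Per megabase they still thinned out, with 11.6 in the shortest and 2.08 in the longest genes, against 89.0 and 4.99 for other Qki-5 peaks.

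The genes named here are among those with the most lone peaks, and all are long. Nlgn1, a postsynaptic adhesion protein, had 8, up to 13.8, beside 4 other Qki-5 peaks. Dnm3, a dynamin of endocytosis, Abr, a regulator of small GTPases, and the transcription factor gene Npas3 had 8 each. Nckap5, Sox6, which keeps oligodendrocyte precursors immature, and the adhesion gene Lsamp had 7 each, as had Arhgap26. The highest was 24.3, in Nckap5 with PPARb 221 bp away. None of the lone peaks in these 8 genes had a Qki-5 peak in isolated cells. Among all lone peaks inside genes 2.98% had one, and in height quintiles 1 and 2 it was 1.60% and 2.88%. Few would thus be expected here, and the absence is not read as a trait of these genes.

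Lone peaks were found at 3 of 18 myelin genes, Mbp, Gsn and Nfasc, a share of 16.7% beside the 13.9% of all genes, against other Qki-5 peaks at 6. The peak inside Mbp, the myelin basic protein gene and a known Quaking RNA target, had a height of 9.96 and lay 11695 bp from a partner. Neither it nor those in Gsn (8.30 for its 1 peak) and Nfasc (2 peaks, the taller 6.64) had a Qki-5 peak of isolated cells, which had one at 13 of the 18 genes. Among all lone peaks 4.62% had one. Of 16 mature oligodendrocyte enzymes, 5 had a lone peak: Qdpr, Ndrg1, Ugt8a, Cdkn1c and Adamts4. Qdpr, which recycles tetrahydrobiopterin, had 15.5 at a boundary and 10.1 in isolated cells, and no other Qki-5 peak. Ugt8a, which makes galactocerebroside, had 8.85 at a boundary, and isolated cells had no Qki-5 peak at that site.

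Of 14 lineage transcription factors, 4 had a lone peak: Yy1, Sox8, Tcf7l2 and Carm1. Yy1, needed for oligodendrocyte differentiation, had 14.4 at chr12:108792805-108793005, and isolated cells had Qki-5 at 15.6 and PPARb at 9.79 there. Sox8 had the same height of 14.4, and isolated cells had no Qki-5 or PPARb peak at that site. Of 18 precursor and stem cell genes, 9 had a lone peak, 22 peaks in all, beside 18 other Qki-5 peaks at 9 genes. Vim, the intermediate filament of progenitors and astrocytes, had 18.3 and Id4, an inhibitor of bHLH factors, had 16.6. Neither of these peaks had an isolated-cell Qki-5 centre under 200 bp away.

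Synaptic and axonal adhesion genes had the highest share, 20 of 25 (80%) with 60 lone peaks, but other Qki-5 peaks lay in 23 of them (118 peaks) and their median length was 911059 bp. Markers of other cells had lone peaks at 5 of 13 astrocyte genes (tallest 11.6, Atp1b2), 3 of 15 neuron genes (Snap25, Syt1 and Nefh, tallest 7.74), 3 of 13 endothelial and mural genes (Rgs5, Flt1 and Vwf, all 7.74) and 0 of 14 microglia genes. The astrocyte genes with one were Atp1b2, Slc1a3, Slc1a2, Acsbg1 and Clu. Another Qki-5 peak lay at 12 of the 13 astrocyte and 8 of the 15 neuron genes. Of the endothelial and mural genes 2 had such a peak, and of the microglia genes 3.

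Of 9 known Quaking RNA targets, 2 had a lone peak, Mbp and Qk itself. The peak in Qk had a height of 6.64 and was its only Qki-5 peak. In cholesterol synthesis 5 of 23 genes had one, Idi1, Dhcr7, Srebf2, Pmvk and Hsd17b7, against 20 with another Qki-5 peak. Idi1, which isomerises isopentenyl diphosphate, had 17.1 at a boundary with HA 205 bp away, and 7.33 in isolated cells. Fatty acid oxidation had 2 of 22, a share of 9.09% beside the 13.9% of all genes, against 19 with another Qki-5 peak. One of them was Hadh (6.08), a mitochondrial dehydrogenase.

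Actin cytoskeleton regulators had 9 of 32, led by Rock2 (21.6), Fyn (11.6), a Src-family kinase of oligodendrocyte differentiation, and Vcl (11.1), against other Qki-5 peaks at 30. Splicing factors had 8 of 33, led by Hnrnpa2b1 (17.1), Hnrnpl (13.3) and Hnrnpf (11.6), against 32. Of 33 ribosomal protein genes 4 had one, Rps19, Rps9, Rps18 and Rpl5, against 31. Rps19 had 22.1 at chr7:24884002-24884202, with 21.1 in isolated cells. In 12 of the 15 lists the share with a lone peak was above 13.9%. Gene length and the number of Qki-5 peaks of any kind differ between lists, and their part in these shares was not tested.

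**Figure D4:**
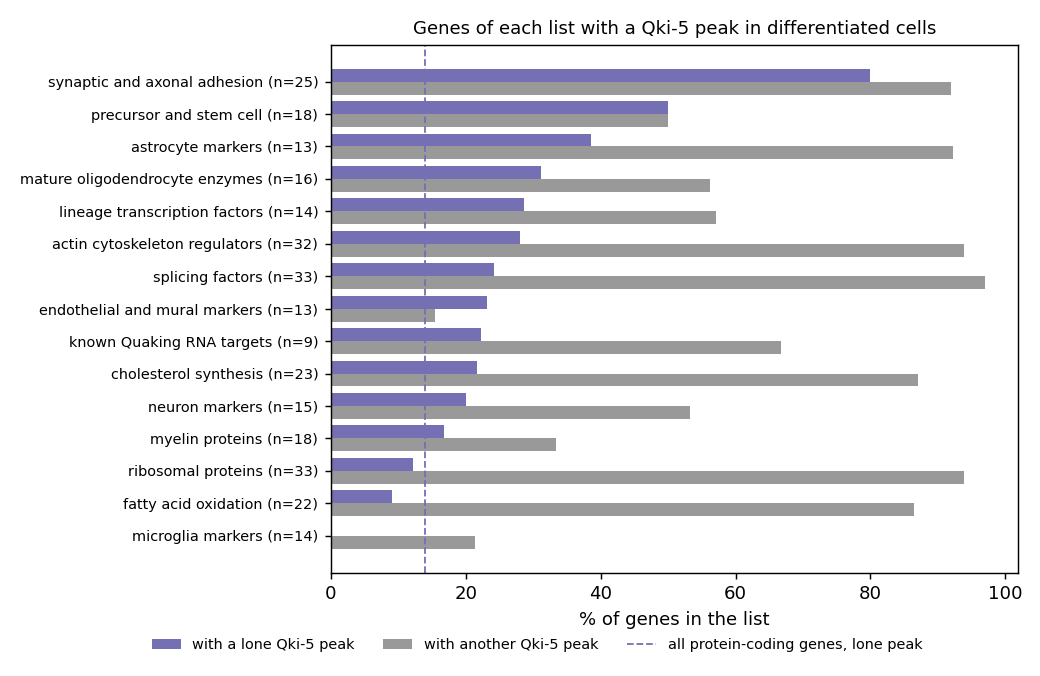
For 15 gene lists, the percentage of genes with a lone Qki-5 peak (upper bar) and with another Qki-5 peak (lower bar) in the gene or within 1000 bp, with the number of genes in brackets. The dashed line marks the 13.9% of all protein-coding genes with a lone peak. Synaptic and axonal adhesion genes reach 80% and microglia markers 0.

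The promoters under lone peaks had another make-up than those under peaks with partners. A RefSeq promoter window, 250 bases before to 50 after the start, held the centre of a lone peak in 486 cases (460 genes), of a peak with 1 or 2 partners in 3525 and of a peak with all 3 in 3343, of 32817 windows. These windows came from 422, 2979 and 2795 peaks in that order, as 1 peak can lie in several windows. The intervals below count windows as if independent, which those of 1 peak are not. G and C made up a median of 58.3% under lone peaks, against 62.7% and 64.0% under peaks with partners and 52.7% over all windows. The median number of CpG was 17, against 23 and 26, and 7 over all. Motifs were searched as exact letters on both strands. CCAAT, the box bound by NF-Y, was in 50.4% of windows under lone peaks (45.9 to 54.9), against 45.1% with 1 or 2 partners, 33.3% with all 3 (31.7 to 35.0) and 37.4% of all windows. At least 3 CCAAT boxes were in 11.9% (9.19 to 15.2), against 8.82% with 1 or 2 partners (7.91 to 9.81), 3.50% with all 3 and 3.37% of all windows. The interval under lone peaks overlaps that with 1 or 2 partners.

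The ETS site and the GC box ran in the other order. The ETS site CGGAAG was in 25.3% of windows under lone peaks, against 36.1%, 45.1% and, over all windows, 16.9%. The GC box GGGCGG was in 60.9%, against 70.4%, 73.3% and 35.6%. The E-box CACGTG was in 9.26% (6.83 to 12.2), against 11.4% (10.4 to 12.5), 13.0% (11.9 to 14.2) and 7.15%. The Quaking core was rare as DNA letters, with ACTAAC in 4.12%, against 4.65% and 3.95% under peaks with partners and 6.09% of all windows. ACTAAT was in 4.94%, against 3.01%, 2.87% and 6.0%. AGGTCA was in 8.85%, against 9.76%, 9.72% and 16.3%. Matches of different motifs may share letters, and each was counted. The G and C content moves with the classes, and its part in these shares was not tested.

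Between near and far lone peaks the CCAAT share differed by less than its counting error. The box was in 52.2% (45.5 to 58.7) of the 232 windows of near and in 51.0% (44.0 to 57.9) of the 210 windows of far lone peaks. GC boxes were in 73.3% of near and 47.1% of far windows, E-boxes in 13.4% and 5.24%, and ETS sites in 27.2% and 23.3%. Near lone windows thus had GC boxes and E-boxes about as often as windows with all 3 partners (73.3% and 13.0%), and the lower shares were those of far ones. Among windows shared with isolated cells, CCAAT was in 55.7% under lone peaks (45.7 to 65.3), against 39.2% under other Qki-5 peaks (37.6 to 40.8), and among those not shared in 48.9% and 39.5%. These matches describe letters and name no bound factor.

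**Figure D5:**
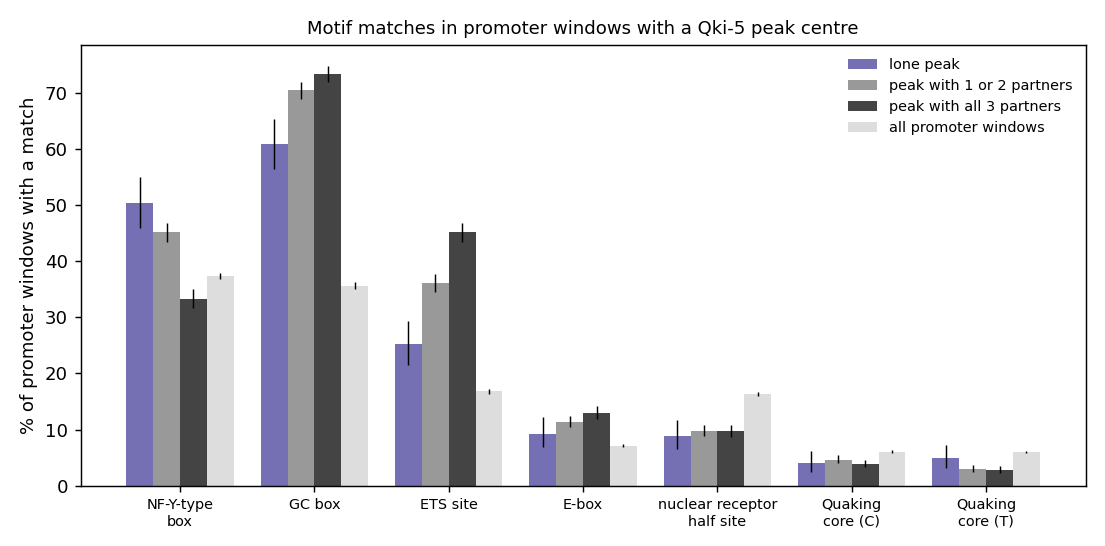
The percentage of RefSeq promoter windows (250 bases before to 50 after the start) with a match to each of 7 motifs on either strand, for windows holding the centre of a lone Qki-5 peak, a peak with 1 or 2 partners, a peak with all 3, and for all windows, with 95% exact intervals. The NF-Y-type box, CCAAT in the text, is in 50.4% under lone peaks and 33.3% under peaks with all 3 partners, and the ETS site in 25.3% and 45.1%.

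Among small RNA genes, a tRNA gene end lay within 500 bp of 34 lone peaks (0.561%, interval 0.389 to 0.783), against 0.281% (0.206 to 0.374) of peaks with 1 or 2 partners, 0.233% (0.138 to 0.368) of peaks with all 3 and 0.325% of all Qki-5 peaks. As background, tRNA genes are transcribed by RNA polymerase III and not by Pol II. The median height of the 34 was 9.68. The tallest was 17.7 at n-TTagt7 on chromosome 11, 3255 bp from a partner, with no Qki-5 peak in isolated cells. The next was 16 at n-TYgta2 on chromosome 3, 234 bp from a partner, with 12.4 in isolated cells. Those next in height, at n-TAagc8, n-TPagg2, n-TGgcc7, n-TVtac1, n-TAagc13 and n-TAcgc10, had a partner at 215 to 581 bp. Isolated cells had a Qki-5 peak at 4 of the 34. Reads of tRNA genes can be misplaced between near-identical copies, and these genes were looked at after other results were seen.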

How the data were processed

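Peak lists of 6 ChIP-seq libraries were used, 4 from differentiated and 2 from isolated cells, while the 2 inputs entered through the caller's values. The submitters' processing notes name mm10 and, among the tools, HOMER 4.10.1 and Bowtie 1.2.2. The file headers show that the authors ran findPeaks of HOMER in factor style, with limits of 0.001 for the false discovery rate, 4-fold over input with a p-value of 0.0001 and 4-fold over the surrounding 10000 bp. Centres of a list are at least 400 bp apart, per the file headers. The height is a signal, tags scaled by the authors to 10000000 per library. Total tags are deposited as counts, or, where the file headers say so, as a scaled signal. Both folds are ratios that the authors' caller wrote, and the focus ratio is a score per peak deposited by the authors. By its directory name the Qki-5 library of differentiated cells is a merge, of what is not stated in the sources used here.

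Centres were set against those of partners and of isolated cells and against 21887 protein-coding genes of RefSeq GRCm38.p6 (mm10). Gene starts and strands came from the RefSeq promoter table, used without chromosome 18. Shares have 95% Clopper-Pearson, differences 95% Newcombe and single heights 95% exact Poisson intervals. Quintiles split all Qki-5 peaks by height, ties by position. Code (Python 3.11.15, numpy 2.4.6, pandas 2.3.3, SciPy 1.17.1, matplotlib 3.10.9) was tested on simulated peaks. Named were the 12 tallest lone peaks, the 10 tallest shared with isolated cells, the 8 genes with the most lone peaks, up to 3 genes per list by height and, outright, counts of 5 or fewer. Some genes that these rules name are not reported here. Members, lists, bands and motifs were chosen with earlier results of these data known. Alternatives changed distances, folds over input and gene windows.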

Additional observations from a re-analysis of the deposited data

How the results depend on the processing

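Lone peaks were below the other Qki-5 peaks in the shares with isolated-cell Qki-5 and PPARb under each alternative here, but the sizes moved. At boundaries and in gene spans the direction depended on the distance to a partner and, at boundaries, on height. With partners counted at under 500 bp and under 1000 bp, lone peaks made up 16.1% and 14.6% of Qki-5 peaks, genes with one 10.5% and 9.13%, the boundary difference was -25.9 and -28.3 points and the Qki-5 sharing difference -20.1 and -19.9, and at 1000 bp the gene span difference was -4.17. With Qki-5 peaks at 8-fold over input the values were 14.7% of peaks, 7.86% of genes, -20.4 points for Qki-5 and -4.42 for PPARb of isolated cells. With partner peaks at 8-fold they were 34.5% of peaks, 22.7% of genes, a median height of 8.30, -17.3 points at boundaries, -15.9 for Qki-5 and -3.31 for PPARb. Isolated-cell centres under 100 bp away gave -15 and -3.00 points for Qki-5 and PPARb, under 500 bp -19.1 and -4.14, and isolated-cell peaks at 8-fold -6.53 and -0.925. Within height quintiles 1 to 5, the Qki-5 difference was -2.04, -3.58, -7.14, -8.82 and -7.92 and the PPARb difference -0.243, -0.367, -1.13, -1.38 and -4.46 points, the last 2 with intervals that include 0. A boundary window of 5000 bp gave -15.8 points, gene spans without a margin 11.6% and with 5000 bp 16.4% of genes. Of the alternatives added after the data were seen, place gave Qki-5 differences of -32.3 at boundaries, -8.33 inside and -4.62 outside genes. The boundary difference was 7.05 at 200 to under 400 bp from a partner, 0.849 with an interval that includes 0 (-2.85 to 4.69) at 400 to under 1000 bp, and -28.0 at 1000 bp or more. In height quintiles 4 and 5 it was 1.36 (-4.21 to 7.04) and 11.6 (4.19 to 18.3). In the first and last band the Qki-5 difference was -8.11 and -20.7, and in the first 2 the median height was 9.96 and 8.30. The remaining 13 alternatives left their values within the interval of the reported one, but with Qki-5 peaks at 8-fold the gene span difference of -1.68 had an interval that includes 0 (-3.63 to 0.25). The cause of these moves was not tested.

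With 1 library per group, nothing shows how far a second would move these values. Lone peaks sit near the caller's threshold of 12 tags, so which of them are called depends on depth, and a partner below its own threshold counts as absent. Sites without an isolated-cell peak are those where none was called, in libraries with 0.849% and 0.116% of tags in peaks, which does not show absence. Parts of genes such as exons were not resolved, and sequence away from promoters was not read.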

Other observations

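On chromosome X lone peaks made up 28.5% of 513 Qki-5 peaks (24.6 to 32.6), against 16.6% to 23.2% on each of chromosomes 1 to 19. Another Qki-5 peak lay within 1000 bp of 12.5% of lone peaks, against 10.4% of the others, within 5000 bp of 28.1%, against 26.6%, and within 10000 bp of 43.6%, against 44.1%.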
